A study of Homo sapiens with 8 samples.

Results

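Long non-coding RNAs (lncRNAs) are transcripts without a long open reading frame, and 275 of them were expressed in RD cells at the level studied here. RD is a human cell line from a rhabdomyosarcoma, a cancer whose cells resemble immature skeletal muscle. The 4 GENCODE 29 gene types (lincRNA, antisense, processed_transcript and sense_intronic) hold 14258 genes in the deposited tables, and 6815 of those had at least 1 count. The 275 were chosen by their own level, a mean of at least 5 CPM (the count of a gene over the library total, per 1e6) over the 8 libraries, out of 58302 genes in all, and small nucleolar RNA host genes named SNHG, GAS5, H19 and MEG3 were left out by name. They comprised 127 lincRNA, 96 antisense, 38 processed_transcript and 14 sense_intronic genes. The groups compared were RD cells carrying a short hairpin RNA against PROX1 (shPROX1, 4 libraries), a homeobox transcription factor, and RD cells carrying a scrambled short hairpin (control, 4 libraries). The series design calls the 4 libraries of each group biological replicates. The labels do not say whether they came from separate cultures or transductions, so the p-values and SD measure the spread between these libraries, which may be technical. Both groups come from the same cell line, grown in high-glucose DMEM with 10% FBS, so that what follows describes a single line. The comparison asks which lncRNAs differed between cells with the PROX1 hairpin and control cells. The hairpin sequence is not in the sources used here, and effects of the hairpin other than less PROX1 were not tested.

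Long non-coding RNAs act in several known ways. Some stay in the nucleus and build bodies or silence a chromosome domain, some bind proteins or microRNAs (miRNAs) in the cytoplasm, and others serve mainly as the primary transcript from which miRNAs or small nucleolar RNAs (snoRNAs) are cut. Many start next to a protein-coding gene or run antisense to it, so that the neighbour has to be read beside each of them.

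PROX1 itself had 33, 42, 34 and 35 counts in the shPROX1 libraries, against 85, 66, 69 and 105 counts in the control libraries. It averaged 8.79 ± 1.15 CPM in shPROX1 and 18.6 ± 2.58 CPM in control (SD, n = 4 each), without overlap between the groups, and fell by 1.07 on the log2 scale (standard error 0.15, edgeR quasi-likelihood test with Benjamini-Hochberg adjustment, adjusted p = 4.89e-06). An exact two-sided permutation of the 8 labels gave p = 0.0286, the smallest that 70 arrangements allow. Its antisense gene PROX1-AS1 held at most 3 counts in any library and was not a member. Libraries held 3747090 to 4865161 counts. The muscle markers MYOD1, MYOG, DES and CHRNA1 were present in every library and MYF5 was at 0 in all of them, while endothelial, leukocyte and epithelial markers other than KRT18 held at most 6 counts. MYOG, the late myogenic factor, averaged 47.8 ± 2.69 CPM in shPROX1 and 121 ± 5.27 CPM in control (log2 change -1.32 ± 0.06), and KRT18 rose (0.47 ± 0.06). The other muscle markers changed less: DES fell (-0.18 ± 0.04), while MYOD1 (0.04 ± 0.07) and CHRNA1 (0.01 ± 0.04) did not pass the test. The part of these marker differences in the lncRNA results was not tested. In bulk RNA, fewer cells of a type and less RNA per cell cannot be told apart.

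PROX1 silencing went with changes in both directions among the 275 lncRNAs. All 275 passed the filter on low counts, and 75 of them (27.3%) differed between the groups by the edgeR quasi-likelihood test at a Benjamini-Hochberg threshold of 0.05 over all tested genes, against 35.2% of the 12392 genes tested. The 75 were 31 that rose (11.3%, against 17.3% of all tested genes) and 44 that fell (16%, against 17.9% of all tested genes). The share that differed depended on the level limit: it was 20.04% of 559 lncRNAs at 2 CPM and 38.2% of 123 at 10 CPM. Groups did not overlap in CPM for 76 lncRNAs (27.6%), against 32.3% of all tested genes. A change of at least 2-fold past the same test was found for 12 (4.36%), 7 higher and 5 lower, against 2.85% of all tested genes. The groups overlapped in 1 of these 12, GASAL1. Among the 243 lncRNAs with a mean of at least 5 CPM in both groups, 5 changed by 2-fold or more (2.06%), and 6 of the 7 rises were among the 18 that reached 5 CPM in shPROX1 only, so the share of 4.36% rests on genes that the level limit chose in part for a difference. The median log2 change was -0.05 over the lncRNAs and -0.01 over all tested genes. Without control replicate 4 the median over the lncRNAs was -0.0148, and without lncRNAs of 10% exon overlap it was -0.0186. Precision was lower for the lncRNAs, with a median standard error of 0.17 on the log2 scale against 0.10 over all tested genes, and 152 of the 275 lay between 5 and 10 CPM. A mean of 5 CPM was reached in both groups by 243 lncRNAs, of which 61 (25.1%) differed. The other 32 reached it in only 1 of the groups (18 in shPROX1 and 14 in control) and were therefore in part chosen for a difference.

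Together the lncRNAs took 0.583, 0.579, 0.589 and 0.597% of counts in the shPROX1 libraries, against 0.622, 0.621, 0.637 and 0.675% in the control libraries. Every shPROX1 library lay below every control library. The sum was 5870 ± 78.1 CPM in shPROX1 and 6388 ± 254 CPM in control (SD, n = 4 each). Most of that difference sat in the pair of most abundant members, NORAD and LRRC75A-AS1, which summed to 926 ± 38.1 CPM in shPROX1 and 1269 ± 36.6 CPM in control. Within the pair it was mainly LRRC75A-AS1 (log2 change -0.95), since NORAD (-0.08) did not pass the test. Without them the sums were 4944 ± 100.3 CPM in shPROX1 and 5119 ± 272 CPM in control, and the groups overlapped. The 31 that rose summed to 1107 ± 63.3 CPM in shPROX1 and 833 ± 70.9 CPM in control, and the 44 that fell to 1114 ± 28.2 CPM in shPROX1 and 1794 ± 34.7 CPM in control. These genes were picked by their calls in the same libraries, so their sums had to differ and only describe the amounts.

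**Figure D1:**
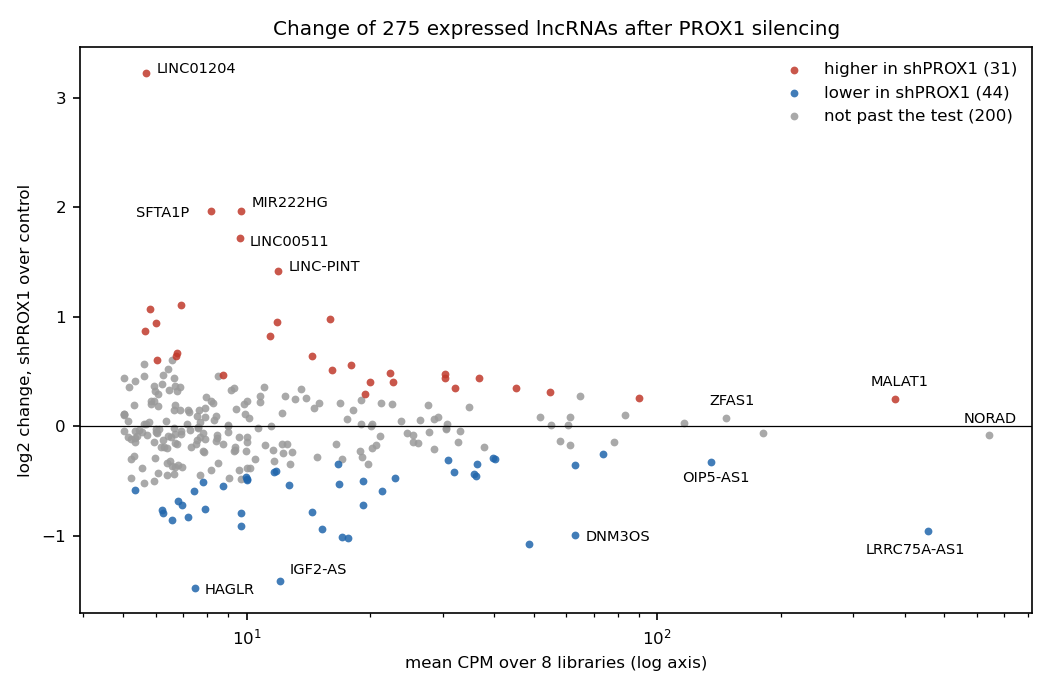
Log2 change (shPROX1 over control) of each of the 275 lncRNAs against its mean CPM over the 8 libraries (log axis), coloured by the edgeR call. Changes of 2-fold and more lie mostly below 20 CPM, and above 50 CPM DNM3OS (-0.99) and LRRC75A-AS1 (-0.95) lie farthest from 0.

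The largest rise was that of LINC01204, a lincRNA on the plus strand of chromosome X (45505388 to 45630202, GRCh38). LINC01204, MIR222HG, SFTA1P, LINC00511, AC010735.2, AC048341.2 and AC245297.3 reached a mean of 5 CPM in shPROX1 only, so that each was in part chosen for its difference and its rank among the rises is a description. LINC01204 was at 11.6, 10.3, 9.87 and 9.53 CPM in the shPROX1 libraries, against 0.707, 0.986, 0.484 and 2.06 CPM in the control libraries. Control replicates 1 to 3 were near the level that 3 counts would give (0.617 to 0.801 CPM), control replicate 4 was above it, and all shPROX1 libraries lay far above all controls. The fitted log2 change was 3.23 ± 0.28 (edgeR quasi-likelihood test with Benjamini-Hochberg adjustment, adjusted p = 4.41e-09). MIR222HG, the host gene of miR-221 and miR-222, lies 115008 bases further along the same chromosome on the minus strand (45745211 to 45770274). It was at 18.9, 12.5, 15.2 and 14.9 CPM in the shPROX1 libraries, against 2.12, 4.93, 5.56 and 3.49 CPM in the control libraries. The groups again stood apart, with a log2 change of 1.96 ± 0.21 (edgeR adjusted p = 1.43e-07). No protein-coding gene is annotated between LINC01204 and MIR222HG. Within 500 kb of the pair, looked at after their values were seen, the only other tested gene was KDM6A, a histone demethylase, at 38.2 ± 3.57 CPM in shPROX1 and 37.7 ± 1.98 CPM in control, which did not pass the test (log2 change 0.04 ± 0.09).

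SFTA1P, an RNA known from lung, was at 14.2, 12, 13.9 and 11.9 CPM in the shPROX1 libraries, against 2.59, 4.19, 4.11 and 2.67 CPM in the control libraries. LINC00511 was at 15.1, 16.1, 12.8 and 14.6 CPM in the shPROX1 libraries, against 3.06, 5.92, 5.08 and 4.11 CPM in the control libraries. In both the lowest shPROX1 library held more than the highest control library, and their log2 changes were 1.96 ± 0.19 and 1.72 ± 0.18 (edgeR adjusted p = 3.62e-08 and 1.06e-07). Their protein-coding neighbours were not past the test: CELF2, an RNA-binding protein gene beside SFTA1P, had a log2 change of 0.08 ± 0.07 and SLC39A11, a zinc transporter gene beside LINC00511, one of -0.09 ± 0.15. LINC-PINT, a p53-induced RNA, is split into a pair of gene identifiers. The shorter, ENSG00000226380, which holds MIR29B1, was at 17.9, 19.1, 20.3 and 12.1 CPM in the shPROX1 libraries, against 6.83, 5.92, 6.29 and 6.99 CPM in the control libraries, and rose (log2 change 1.42 ± 0.17, edgeR adjusted p = 7.98e-07). The longer, ENSG00000231721, averaged 15.0 ± 3.28 CPM in shPROX1 and 12.1 ± 1.84 CPM in control and did not pass the test (0.34 ± 0.16, edgeR adjusted p = 0.104), but passed it without shPROX1 replicate 3 (log2 change 0.46). They share up to 31.6% and 29.6% of their exon bases with the gene AC016831.6, so that part of their reads could belong to it.

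The other 7 of the 12 largest rises without overlap had log2 changes of 0.67 to 1.07. AC010735.2, which starts head-to-head with IRS1, the insulin receptor adaptor, averaged 7.89 ± 1.65 CPM in shPROX1 and 3.77 ± 1.61 CPM in control. SBF2-AS1 was at 24.2, 19.8, 22.4 and 17.9 CPM in the shPROX1 libraries, against 9.89, 10.1, 13.8 and 9.87 CPM in the control libraries (log2 change 0.98 ± 0.14). It shares up to 32.2% of its exon bases with SBF2 on the other strand. SBF2 averaged 52.0 ± 3.36 CPM in shPROX1 and 49.3 ± 7.50 CPM in control and did not pass the test. NR2F1-AS1, antisense to the nuclear receptor gene NR2F1, was at 15.1, 14.9, 18.1 and 13.9 CPM in the shPROX1 libraries, against 7.30, 6.66, 10.9 and 7.61 CPM in the control libraries (0.96 ± 0.16). The remaining rises were AC048341.2 (0.94 ± 0.22), AC245297.3 (0.87 ± 0.21), MGC12916 (0.83 ± 0.15) and ZNF674-AS1 (0.67 ± 0.20). The rise of ZNF674-AS1 did not pass the test without shPROX1 replicate 2 or with DESeq2.

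**Figure D2:**
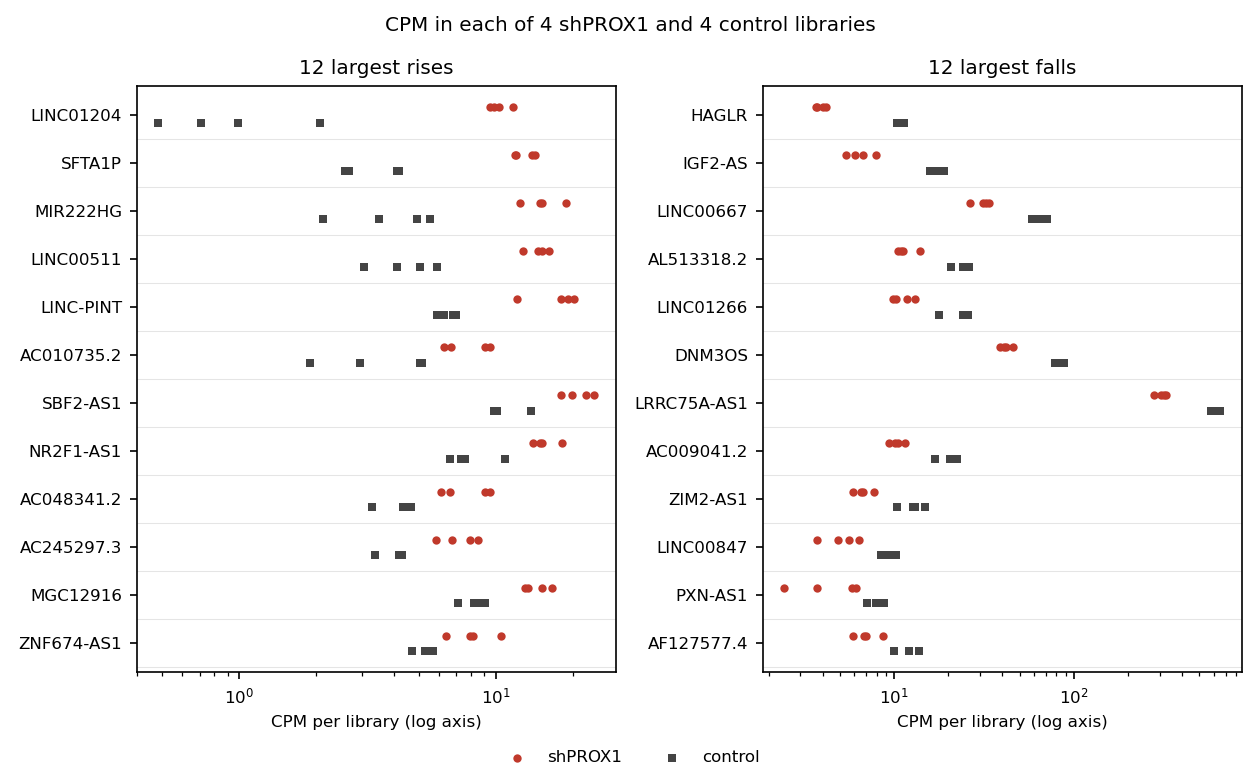
CPM in each shPROX1 library (red circles) and each control library (dark squares) for the 12 largest rises and the 12 largest falls among lncRNAs past the test whose groups did not overlap (log axes). LINC01204 shows the widest gap among the rises, with 9.53 to 11.6 CPM in shPROX1 and 0.484 to 2.06 CPM in control.

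The largest fall was that of HAGLR, which runs antisense within the HOXD cluster on the minus strand of chromosome 2 (176164051 to 176188958). Its mean reached 5 CPM in control only, as did that of PXN-AS1, so that both were in part chosen for a difference. HAGLR was at 4.19, 3.67, 4 and 3.72 CPM in the shPROX1 libraries, against 11.3, 11.3, 10.4 and 11.1 CPM in the control libraries. The libraries of each group lay close together and far from the other group, and the log2 change was -1.47 ± 0.18 (edgeR quasi-likelihood test with Benjamini-Hochberg adjustment, adjusted p = 7.82e-07). HOXD3, which it overlaps, was at 5.24 ± 0.435 CPM in shPROX1 and 5.41 ± 0.654 CPM in control and did not pass the test (-0.02 ± 0.20), nor did the neighbouring HOXD-AS2 (-0.07 ± 0.21). The RefSeq promoter window of HAGLR at chr2:176188909-176189208 (GRCh38.p14, minus strand) is shown because HAGLR fell most. The capitals mark CAGCTG, the E-box of myogenic factors, which occurs at 2 places in it.
HAGLR promoter: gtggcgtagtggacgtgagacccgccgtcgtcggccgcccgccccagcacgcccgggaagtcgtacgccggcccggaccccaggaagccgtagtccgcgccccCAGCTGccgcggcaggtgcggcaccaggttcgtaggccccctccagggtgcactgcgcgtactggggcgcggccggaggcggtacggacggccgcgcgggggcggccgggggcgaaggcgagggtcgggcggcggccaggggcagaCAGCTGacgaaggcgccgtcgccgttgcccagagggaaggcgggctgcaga

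IGF2-AS, which overlaps the growth factor gene IGF2 on the opposite strand, was at 6.05, 5.38, 6.67 and 7.90 CPM in the shPROX1 libraries, against 18.6, 17, 15.7 and 18.9 CPM in the control libraries (log2 change -1.41 ± 0.15). DNM3OS, the host of miR-199a-2 and miR-214 on the opposite strand of DNM3, was at 38.9, 40.6, 41.9 and 45.6 CPM in the shPROX1 libraries, against 84.3, 85.6, 78.6 and 88.4 CPM in the control libraries. Neither gene showed overlap between the groups. The log2 change of DNM3OS was -0.99 ± 0.07 (edgeR adjusted p = 1.25e-10). DNM3 itself was at 3.38 ± 1.56 CPM in shPROX1 and 3.57 ± 1.03 CPM in control. LRRC75A-AS1, which newer annotation names SNHG29 and which holds SNORD49A, SNORD49B and SNORD65, was at 319, 305, 279 and 325 CPM in the shPROX1 libraries, against 653, 580.5, 596 and 589 CPM in the control libraries. It fell by 0.95 on the log2 scale (standard error 0.05, edgeR adjusted p = 2.42e-12). LRRC75A, with which it shares up to 17.8% of its exon bases, averaged 4.05 ± 1.36 CPM in shPROX1 and 3.98 ± 0.972 CPM in control.

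LINC00667 averaged 30.9 ± 3.11 CPM in shPROX1 and 66.3 ± 5.70 CPM in control (log2 change -1.08 ± 0.09). AL513318.2 (-1.01 ± 0.13) and LINC01266 (-1.01 ± 0.14) fell by similar amounts, at 9.87 to 13.9 CPM in the shPROX1 libraries of both and 17.7 to 25.9 CPM in their control libraries. AC009041.2, named CEROX1 in newer annotation and known in mouse as an RNA that raises the activity of a respiratory chain complex, averaged 10.4 ± 0.906 CPM in shPROX1 and 20.1 ± 2.30 CPM in control (-0.94 ± 0.13). The last 4 of the 12 were ZIM2-AS1 (-0.91 ± 0.17), LINC00847 (-0.83 ± 0.19), PXN-AS1 (-0.80 ± 0.23) and AF127577.4 (-0.79 ± 0.17). Of the 12 falls, LINC00667, AL513318.2, IGF2-AS, HAGLR, LRRC75A-AS1, ZIM2-AS1, LINC00847, PXN-AS1 and AF127577.4 overlap exons of other annotated genes by 10% or more of their own exon length. The highest share was 38.6%, for PXN-AS1, which overlaps PXN. The library kit keeps strand per the labels, but whether the counting used it is unknown, and reads of such overlapping genes cannot be told apart with certainty.

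Among abundant lncRNAs, levels are compared per kb of exon. NORAD, a cytoplasmic decoy of PUMILIO proteins, was at 639, 642, 593 and 601 CPM in the shPROX1 libraries, against 671, 668, 659 and 659 CPM in the control libraries, or 116 CPM per kb in shPROX1 and 124 CPM per kb in control. The groups did not overlap, but the log2 change of -0.08 ± 0.04 did not pass the test (edgeR adjusted p = 0.143). LRRC75A-AS1 was at 81.7 CPM per kb in shPROX1 and 161 CPM per kb in control, and so ranked above NORAD in control and below it in shPROX1. AD000090.1 was higher per kb than either on average, at 174 CPM per kb in shPROX1 and 163 CPM per kb in control, but this rested on replicate 4 of each group. It did not pass the test in the 8 libraries (log2 change 0.11 ± 0.47), and without shPROX1 replicate 4 it passed as a fall (-1.08, edgeR adjusted p = 0.0414). Its levels were 36.5, 36.5, 42.2 and 229 CPM in the shPROX1 libraries, against 54.9, 36.5, 43.3 and 187 CPM in the control libraries. ZFAS1, a snoRNA host (66.8 CPM per kb in shPROX1 and 64.4 in control), AC083967.1 (46.6 CPM per kb in shPROX1 and 52.2 in control) and FGD5-AS1 (34.3 CPM per kb in shPROX1 and 36.3 in control) did not pass the test, and LINC00626 fell (57.5 CPM per kb in shPROX1 and 74.4 in control, log2 change -0.35 ± 0.07).

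The NORAD transcript holds many copies of the PUMILIO motif. The motif TGTANATA, where N is any base, searched on the transcript strand only, occurs 15 times in its 5339 bases. Of 9710 other GENCODE 29 transcripts of 4272 to 6673 bases, 58.5% held none and 2 held at least as many. The stretch of 20 bases from transcript base 1436 is printed with the motif in capitals.
NORAD motif: tatctgTGTATATAgtgtac
OIP5-AS1, also called cyrano, is a conserved cytoplasmic RNA with an extended site for miR-7. It was at 125, 121, 118 and 113 CPM in the shPROX1 libraries, against 152, 144, 154 and 157 CPM in the control libraries, and fell without overlap (log2 change -0.32 ± 0.05, edgeR adjusted p = 4.72e-05). The GENCODE 29 transcript used here (8829 bases) holds 3 matches to the seed of miR-7. A short window before each match was searched for further bases complementary to miR-7. In 1 of the windows a run of at least 13 such bases was found, against at most 5 in the others. The window can cut a run short. The printed site, bases 2869 to 2894, covers that run and its seed match. The miRNA and the site are printed with the seed (bases 2 to 8) and its match in capitals; miR-7 itself was not measured here.
miR-7-5p: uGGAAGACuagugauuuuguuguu
OIP5-AS1 site: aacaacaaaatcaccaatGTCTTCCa

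Of the 2 listed nuclear RNAs, 1 rose, while 17.3% of all tested genes rose. MALAT1, of nuclear speckles, was at 394, 360, 505 and 381 CPM in the shPROX1 libraries, against 281, 334, 364 and 421 CPM in the control libraries. The groups overlapped and the rise was small (log2 change 0.25 ± 0.09, edgeR adjusted p = 0.0383). It was lost with DESeq2 and without shPROX1 replicate 1 or 3 or control replicate 1, 2 or 3. NEAT1, the scaffold of paraspeckles, was at 70.8, 70.2, 87.0 and 67.6 CPM in the shPROX1 libraries, against 65.2, 79.4, 91.4 and 94.3 CPM in the control libraries, and did not pass the test (-0.14 ± 0.09), except as a fall when control replicate 1 was left out. The imprinted antisense RNA KCNQ1OT1 was at 112, 112, 122 and 121 CPM in the shPROX1 libraries, against 88.8, 105, 122 and 147 CPM in the control libraries (0.03 ± 0.09). MALAT1, NEAT1 and KCNQ1OT1 were all, among the control libraries, lowest in replicate 1 and highest in replicate 4. The controls spread more widely than the shPROX1 libraries for KCNQ1OT1 and NEAT1. The part of this spread in their results was not tested.

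The list of imprinting and X inactivation RNAs had 4 members, of which 2 fell and 0 rose. Over all tested genes 17.9% fell and 17.3% rose, and a list this small shows no direction of its own. FTX averaged 35.7 ± 2.77 CPM in shPROX1 and 44.6 ± 2.40 CPM in control (log2 change -0.30 ± 0.08, edgeR adjusted p = 0.00575), and JPX, an activator of XIST, averaged 35.4 ± 2.04 CPM in shPROX1 and 44.0 ± 3.95 CPM in control (-0.29 ± 0.08, edgeR adjusted p = 0.0104). They overlap on opposite strands of chromosome X, with up to 83.6% of JPX exon bases also in FTX, so that the falls cannot be taken as separate. The fall of JPX was lost with DESeq2. MEG8, of the imprinted DLK1 domain, did not pass the test (0.01 ± 0.07). The 13 listed growth and cancer genes gave 6 members, with LINC-PINT counted once for each identifier of its pair. Of these 6, 3 rose, LINC-PINT (ENSG00000226380), DLEU2 and PVT1, a neighbour of MYC, and 0 fell. These members are again too few to show a direction. The call of DLEU2 was lost in 9 of the 13 alternative fits. PVT1 was at 19.3, 18.8, 19.2 and 18.1 CPM in the shPROX1 libraries, against 17.2, 10.9, 13.5 and 12.1 CPM in the control libraries (0.51 ± 0.14, edgeR adjusted p = 0.00517). CRNDE was at 20.2 ± 1.25 CPM in shPROX1 and 20.2 ± 1.005 CPM in control, and DANCR, an RNA that opposes differentiation of progenitors, at 57.1 ± 3.51 CPM in shPROX1 and 65.2 ± 3.11 CPM in control (-0.17 ± 0.07, edgeR adjusted p = 0.0605), a difference that passed the test without shPROX1 replicate 1 or control replicate 2.

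Neither of the 2 muscle-related members passed the test, although the gene opposite each of them fell. TTN-AS1, antisense to the sarcomere protein gene titin, was at 31.9, 22.8, 33.4 and 32.5 CPM in the shPROX1 libraries, against 30.6, 31.1, 30.7 and 31.7 CPM in the control libraries (log2 change -0.02 ± 0.11), while TTN averaged 255 ± 23.0 CPM in shPROX1 and 374 ± 90.3 CPM in control (-0.53 ± 0.10, edgeR adjusted p = 0.000336). The groups of TTN-AS1 overlapped although up to 55.4% of its exon bases lie in TTN. MSC-AS1 averaged 22.5 ± 0.921 CPM in shPROX1 and 19.9 ± 2.80 CPM in control (0.21 ± 0.12), while MSC, a bHLH repressor gene of myogenic cells, averaged 139 ± 8.52 CPM in shPROX1 and 299.5 ± 24.4 CPM in control (-1.09 ± 0.06). Of the 3 HOX cluster members HAGLR fell, and HOTAIR, of the HOXC cluster, was at 10.5, 8.56, 10.1 and 8.14 CPM in the shPROX1 libraries, against 11.1, 10.6, 13.8 and 11.1 CPM in the control libraries (-0.29 ± 0.16, edgeR adjusted p = 0.150). HOXC11, head-to-head with HOTAIR, averaged 9.31 ± 1.48 CPM in shPROX1 and 13.8 ± 3.09 CPM in control (-0.54 ± 0.18, edgeR adjusted p = 0.0202), a fall that was lost with DESeq2 and without shPROX1 replicate 1 or 2 or control replicate 1.

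Of the 11 members that hold snoRNA genes, 1 passed the test, LRRC75A-AS1 (9.09%, against 35.2% of all tested genes). ZFAS1 was at 148, 152, 148 and 151 CPM in the shPROX1 libraries, against 155, 143, 143 and 136 CPM in the control libraries, with overlapping groups (log2 change 0.08 ± 0.05). EPB41L4A-AS1 averaged 26.3 ± 3.35 CPM in shPROX1 and 31.0 ± 1.91 CPM in control (-0.21 ± 0.10, edgeR adjusted p = 0.116), a difference that passed the test without shPROX1 replicate 2. The genes left out by name, most of them snoRNA hosts, moved in both directions. Of 18 genes at 5 CPM or more, 3 rose and 3 fell (33.3%, against 35.2% of all tested genes), with 0 at 2-fold.

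The genes that hold miRNAs changed in both directions. In 24 members at least 1 GENCODE miRNA gene lies within the span on the same strand, and 13 of the 24 (54.2%) passed the test, 8 higher and 5 lower in shPROX1, against 35.2% of all tested genes, of which 17.3% were higher and 17.9% lower. These host genes had a median standard error of 0.12, below that of the whole set (0.17). The mature miRNAs themselves were not measured here. Mature forms held by 5 of the hosts past the test, picked because these miRNAs are widely studied, are printed 5′ to 3′ from RefSeq (GRCh38.p14), with the seed (bases 2 to 8), which pairs with target mRNAs, in capitals. Held by MIR222HG, LINC-PINT and MIR22HG, which rose, are the following.
miR-221-3p: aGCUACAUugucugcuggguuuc
miR-222-3p: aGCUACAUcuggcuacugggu
miR-29b-3p: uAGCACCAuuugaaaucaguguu
miR-22-3p: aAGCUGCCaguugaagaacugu
DNM3OS and MIR17HG, which fell, hold the following.
miR-199a-5p: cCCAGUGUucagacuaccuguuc
miR-199a-3p: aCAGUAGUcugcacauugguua
miR-214-3p: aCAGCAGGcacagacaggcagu
miR-17-5p: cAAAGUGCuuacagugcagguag
miR-20a-5p: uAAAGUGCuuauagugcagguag
miR-18a-5p: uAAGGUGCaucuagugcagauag
miR-19a-3p: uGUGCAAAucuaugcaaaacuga
miR-19b-3p: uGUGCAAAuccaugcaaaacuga
miR-92a-3p: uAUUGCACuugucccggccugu
MiR-221-3p and miR-222-3p share a seed, as do miR-17-5p and miR-20a-5p, and miR-19a-3p and miR-19b-3p. MIR17HG, the host of the growth-promoting miR-17-92 cluster, was at 20.7, 19.3, 13.9 and 21.9 CPM in the shPROX1 libraries, against 27.8, 30.6, 24.9 and 24.9 CPM in the control libraries. All shPROX1 libraries lay below all control libraries (log2 change -0.48 ± 0.13, edgeR adjusted p = 0.00514). MIR22HG was at 27.0, 25.4, 23.0 and 27.4 CPM in the shPROX1 libraries, against 21.7, 19, 17.9 and 20.3 CPM in the control libraries (0.41 ± 0.11, edgeR adjusted p = 0.00505).

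Several hosts hold miRNAs with the same or nearly the same seed. DLEU2, the host of miR-15a and miR-16-1, was at 19.8, 20.3, 23.5 and 21.6 CPM in the shPROX1 libraries, against 17.2, 15.3, 18.9 and 18.7 CPM in the control libraries (log2 change 0.30 ± 0.11, edgeR adjusted p = 0.0457). MIR503HG was at 5.82, 7.34, 6.4 and 3.95 CPM in the shPROX1 libraries, against 7.77, 8.63, 11.6 and 8.02 CPM in the control libraries (-0.59 ± 0.20, edgeR adjusted p = 0.0273). DLEU2 thus passed as a rise and MIR503HG as a fall. The call of DLEU2 was lost without a filter on low counts, with DESeq2, with the replicate block and without any of 6 libraries (shPROX1 replicate 2, 3 or 4, control replicate 1, 2 or 4), and that of MIR503HG with DESeq2 and without shPROX1 replicate 1 or 4 or control replicate 3. The mature miRNAs share all seed bases but the last.
miR-15a-5p: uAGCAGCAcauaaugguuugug
miR-16-5p: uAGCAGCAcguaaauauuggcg
miR-503-5p: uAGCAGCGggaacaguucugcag
MIR100HG, the host of miR-100, let-7a-2 and miR-125b-1, was at 65.4, 59.2, 58.2 and 58.1 CPM in the shPROX1 libraries, against 41.9, 54.0, 49.1 and 51.8 CPM in the control libraries (log2 change 0.32 ± 0.08, edgeR adjusted p = 0.00303). MIR99AHG, the host of the related miR-99a and let-7c, averaged 9.21 ± 1.03 CPM in shPROX1 and 9.97 ± 1.18 CPM in control (-0.10 ± 0.16), and MIRLET7BHG averaged 20.01 ± 0.699 CPM in shPROX1 and 20.2 ± 3.74 CPM in control (0.00 ± 0.13). Only MIR100HG of these passed the test, and differences between these hosts were not tested. Several of their miRNAs share a seed, either that of miR-100 and miR-99a or that of let-7, and these are printed.
miR-100-5p: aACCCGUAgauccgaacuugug
miR-99a-5p: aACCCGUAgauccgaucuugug
let-7a-5p: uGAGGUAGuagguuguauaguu
let-7c-5p: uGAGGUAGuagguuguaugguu
let-7b-5p: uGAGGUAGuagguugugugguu
FTX, which fell, holds 4 miRNA genes, among them MIR374B and MIR421, and GABPB1-AS1 (27.0 ± 2.12 CPM in shPROX1 and 36.8 ± 1.75 CPM in control, -0.42 ± 0.09) holds MIR4712. Of the uncalled hosts, AL117190.1 (0.36 ± 0.18), MIR181A1HG (0.34 ± 0.20), MIR663AHG (0.27 ± 0.13) and TTC28-AS1 (-0.22 ± 0.17) lay farthest from 0, while ENTPD1-AS1 (0.02 ± 0.13) and MUC20-OT1 (-0.06 ± 0.11) lay near it. Up to 84.3% of the exon bases of AL117190.1 are also in MEG8. MIR663AHG passed the test without a filter on low counts and without control replicate 4.

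**Figure D3:**
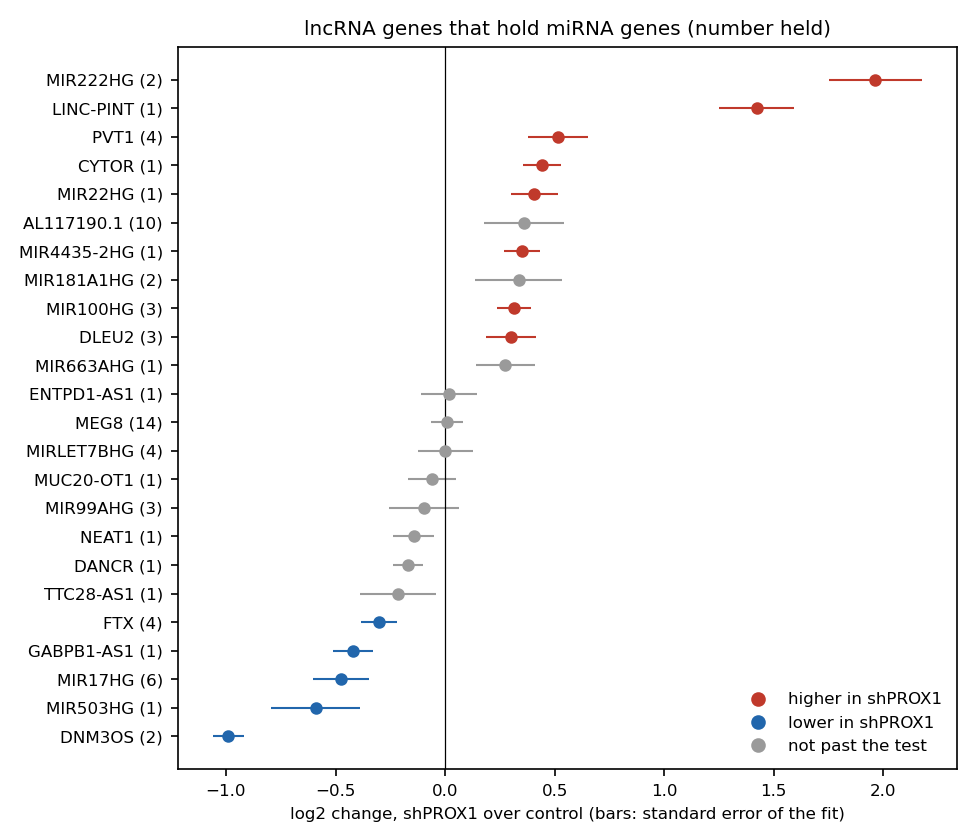
Log2 change (shPROX1 over control) of the 24 lncRNA genes that hold GENCODE miRNA genes, with the number held in brackets and the standard error of the edgeR fit as bars. MIR222HG (1.96) and LINC-PINT (1.42) lie at the top and DNM3OS (-0.99) at the bottom.

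CYTOR and MIR4435-2HG are near-identical copies on chromosome 2 that hold the same miRNA, miR-4435, and both rose. CYTOR was at 41.4, 42.3, 44.3 and 40.7 CPM in the shPROX1 libraries, against 28.0, 31.6, 30.2 and 35.8 CPM in the control libraries (log2 change 0.44 ± 0.09, edgeR adjusted p = 0.000304). MIR4435-2HG was at 56.8, 46.2, 45.1 and 53 CPM in the shPROX1 libraries, against 40.04, 42.7, 39.4 and 38.8 CPM in the control libraries (0.35 ± 0.08, edgeR adjusted p = 0.00212). Groups did not overlap in either, but reads that fit both copies could have been split or dropped, so the values of the copies are uncertain and not independent. Their RefSeq promoter windows, offset by 59 bases, are identical over the 241 bases they share. The window of CYTOR at chr2:87455177-87455476 (GRCh38.p14, plus strand) is shown with the AP-1 motif TGACTCA, here on the reverse strand as TGAGTCA, in capitals.
CYTOR promoter: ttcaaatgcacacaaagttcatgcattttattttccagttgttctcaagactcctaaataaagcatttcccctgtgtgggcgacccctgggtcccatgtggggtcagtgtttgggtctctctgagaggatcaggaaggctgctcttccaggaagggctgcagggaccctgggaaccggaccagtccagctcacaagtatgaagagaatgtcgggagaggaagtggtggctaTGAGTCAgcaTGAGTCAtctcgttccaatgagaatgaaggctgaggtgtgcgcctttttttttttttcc

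Windows from 250 bases before to 50 bases after the start were available for 154 members, 205 windows in all, and were searched on both strands for 3 short motifs. The E-box CAGCTG was in 17.6% of the member windows and 17.9% of all 35116 RefSeq windows, and the TEAD motif CATTCC in 12.7% of the member windows and 14.03% of all. The AP-1 motif TGACTCA was in 5.85% of the member windows and 4.95% of all. By call and per gene, TGACTCA was found for 4 of 18 members that rose (CYTOR, MIR4435-2HG, LINC01630 and AC026250.1), 0 of 29 that fell and 7 of 107 that did not pass the test, with CYTOR and MIR4435-2HG being copies. Per window, the measure of the shares above, it was in 12.1% of 33 from members that rose and 0% of 34 from those that fell. Of 138 windows from uncalled members, 5.80% held it. CAGCTG was found for 4 of 18 members that rose, 7 of 29 that fell and 24 of 107 that did not pass the test. For CATTCC the numbers were 5 of 18, 4 of 29 and 15 of 107. Members that rose had more windows per gene, so the shares per window are given too. In the same order they were 12.1%, 20.6% and 18.1% for CAGCTG, and 15.2%, 11.8% and 12.3% for CATTCC. A match says only that these letters lie in the window.

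Over all tested genes 35.2% passed the test, 17.3% higher and 17.9% lower, and the shares by class are read beside that. By annotated type, 47 of 127 lincRNA members (37.0%) passed the test, 21 higher and 26 lower, and 19 of 96 antisense members (19.8%), 6 higher and 13 lower. Of the processed_transcript members 9 of 38 passed (4 higher, 5 lower) and of the sense_intronic members 0 of 14, where 1 gene had groups that did not overlap. The share also moved with level. Between 5 and 10 CPM it was 18.4% of 152 lncRNAs, against 27.9% of 1048 protein-coding genes, between 10 and 20 CPM 35.6%, against 28.6%, between 20 and 50 CPM 41.9%, against 34.4%, and at 50 CPM or more 38.1% of 21 lncRNAs, against 46.5% of 4721 protein-coding genes. By position, 10 of 71 lncRNAs whose start lies within 2000 bases of the start of an opposite-strand protein-coding gene (head-to-head) passed the test (14.1%), against 25 of 69 without a tested protein-coding gene within 50 kb (36.2%), 20 of 60 with a neighbour apart (33.3%), 17 of 47 that overlap a gene on the opposite strand (36.2%) and 3 of 28 that overlap one on the same strand. These differences between classes were not tested.

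**Figure D4:**
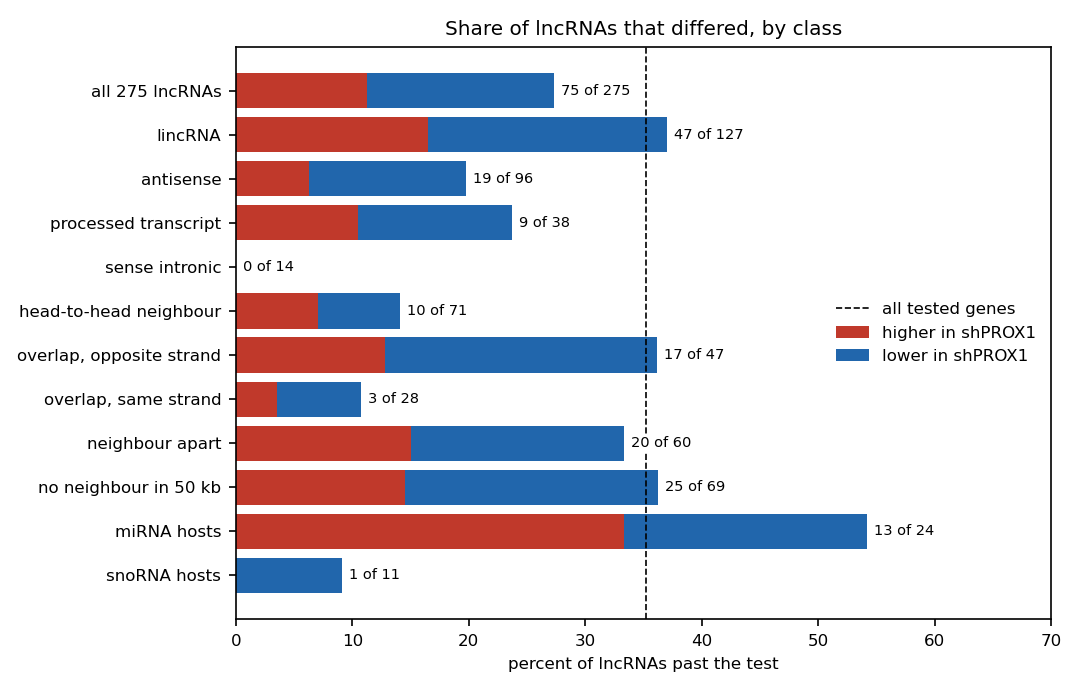
Percent of lncRNAs past the edgeR test by GENCODE type, position relative to the nearest tested protein-coding gene, and small RNA content, split into higher (red) and lower (blue) in shPROX1, with counts beside each bar. The dashed line is the 35.2% of all tested genes. miRNA hosts (13 of 24) lie above it and head-to-head lncRNAs (10 of 71) below it.

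For 206 members the nearest tested protein-coding gene lay within 50 kb. In 15 of these pairs both genes passed the test, 10 in the same direction (5 both higher, 5 both lower) and 5 in opposite directions. In 35 pairs only the lncRNA passed, in 51 only the neighbour and in 105 neither. Across the 206 pairs, which come from the same 8 libraries, the log2 changes had a Pearson r of 0.17 and a Spearman rho of 0.12. Among 8564 protein-coding genes and their nearest protein-coding gene, 630 of 1167 pairs with both past the test went the same way (54.0%), with r of 0.13, against 66.7% of the 15 lncRNA pairs. Over all pairs the order was the other way, with both genes past the test in the same direction in 4.85% of the lncRNA pairs and 7.36% of the protein-coding pairs; neither difference was tested. Without pairs that share exon bases, 6 of 8 went the same way.

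Among pairs that rose together, NR2F1-AS1 stood opposite NR2F1, a nuclear receptor gene that averaged 72.8 ± 4.85 CPM in shPROX1 and 42.2 ± 3.96 CPM in control (log2 change 0.81 ± 0.08, edgeR adjusted p = 1.69e-08), with up to 2.05% of NR2F1-AS1 exon bases shared. MGC12916 overlaps, on the same strand and with no shared exon base, HS3ST3B1, a heparan sulfate sulfotransferase gene at 34.9 ± 2.27 CPM in shPROX1 and 23.4 ± 1.18 CPM in control (0.60 ± 0.09). IRS1, 386 bases from AC010735.2, averaged 146 ± 4.67 CPM in shPROX1 and 122 ± 10.1 CPM in control (0.29 ± 0.06). SLC16A1-AS1 (0.64 ± 0.14) rose with the lactate transporter gene SLC16A1 (0.14 ± 0.04), and AC016588.2 (0.35 ± 0.09) with PLPP2 (0.39 ± 0.11). Among pairs that fell together, IGF2 averaged 105 ± 17.1 CPM in shPROX1 and 207 ± 12.8 CPM in control (-0.96 ± 0.08, edgeR adjusted p = 9.26e-10) beside IGF2-AS, which shares up to 15.9% of its exon bases with it. RGS16, a regulator of G protein signalling beside LINC01686 (-0.72 ± 0.22), averaged 284 ± 15.1 CPM in shPROX1 and 425 ± 21.6 CPM in control (-0.56 ± 0.05). AC112518.1, named UMLILO in newer annotation (-0.68 ± 0.18), lies 25978 bases from the chemokine gene CXCL8, at 10.1 ± 2.66 CPM in shPROX1 and 15.2 ± 1.91 CPM in control (-0.56 ± 0.17). MAPKAPK5-AS1 (-0.59 ± 0.12) fell with the kinase gene MAPKAPK5 (-0.29 ± 0.06), and RPARP-AS1 (-0.41 ± 0.14) with MFSD13A (-0.81 ± 0.25). The CPM of LINC01686 overlapped between the groups.

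In the 5 pairs that moved apart, the lncRNA fell and its neighbour rose in 4. AF127577.4 was at 7.04 ± 1.15 CPM in shPROX1 and 12.4 ± 1.84 CPM in control, while NRIP1, a nuclear receptor corepressor gene on the same strand, was at 290.2 ± 10.9 CPM in shPROX1 and 205 ± 12.6 CPM in control (log2 change 0.53 ± 0.05, edgeR adjusted p = 3.45e-08). PXN-AS1 was at 3.72, 2.45, 6.14 and 5.81 CPM in the shPROX1 libraries, against 8.71, 7.89, 7.01 and 8.22 CPM in the control libraries. PXN, the focal adhesion adaptor gene on the other strand, averaged 128 ± 7.56 CPM in shPROX1 and 91.4 ± 3.64 CPM in control (0.51 ± 0.06). LINC00958 (-0.35 ± 0.11) fell beside the Hippo pathway factor gene TEAD1, which rose (0.36 ± 0.08), with overlapping CPM of LINC00958, and AL035071.1 (-0.72 ± 0.13) beside the microtubule protein gene MAPRE1 (0.19 ± 0.05). PCBP1-AS1 rose (0.40 ± 0.12) and PCBP1, an RNA-binding protein gene, fell (-0.35 ± 0.13). Neighbours also changed beside named lncRNAs that did not pass the test: ZNFX1, head-to-head with ZFAS1, averaged 210.2 ± 7.75 CPM in shPROX1 and 158 ± 6.73 CPM in control (0.44 ± 0.05), and PPARA, a nuclear receptor gene near MIRLET7BHG, averaged 7.69 ± 1.80 CPM in shPROX1 and 13.2 ± 0.865 CPM in control (-0.76 ± 0.17).

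**Figure D5:**
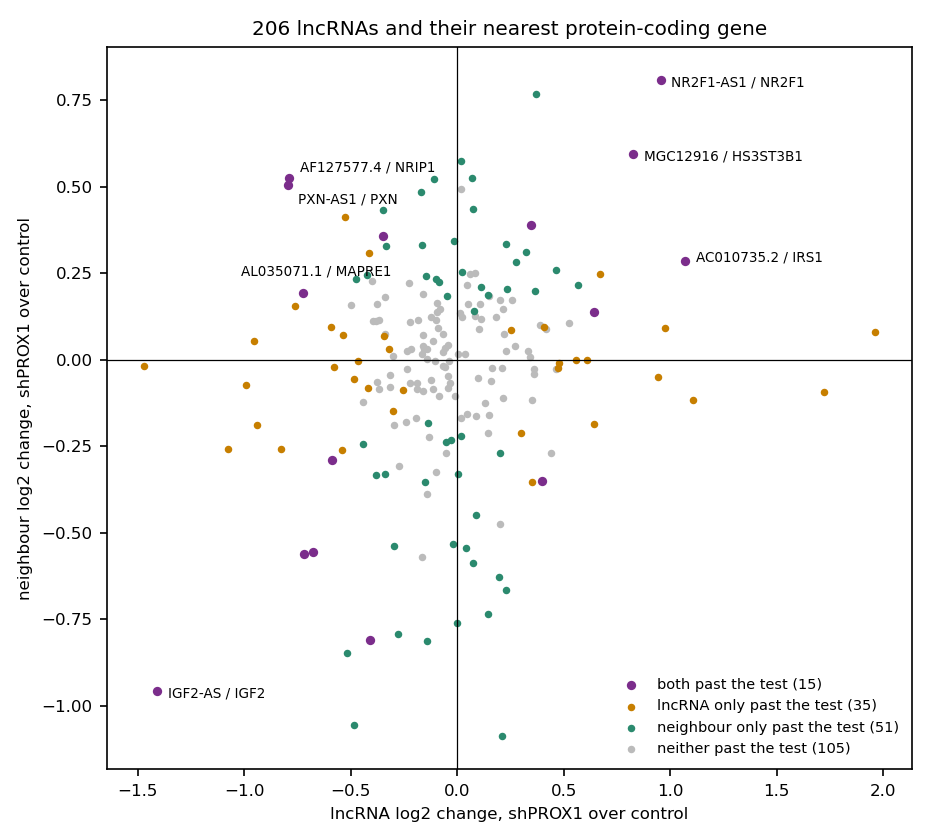
Log2 change (shPROX1 over control) of the nearest protein-coding gene within 50 kb against that of the lncRNA, for 206 pairs coloured by which of them passed the edgeR test. IGF2-AS / IGF2 lies at the lower left (-1.41, -0.96) and NR2F1-AS1 / NR2F1 at the upper right (0.96, 0.81).

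The set has a sharp edge in level. Just inside it were AC108134.2, AC012615.1 and TBILA, with mean levels of 5.03, 5.03 and 5.02 CPM, and just outside it MIR600HG, DSCR4 and SLFNL1-AS1, the last 2 with 4.94 and 4.93 CPM and MIR600HG just under 5 CPM. A further 31 lncRNAs below the limit had a mean of at least 5 CPM in 1 group.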

How the data were processed

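Total RNA of 4 shPROX1 and 4 control RD libraries, grouped by their titles, was measured by RNA-seq. The authors deposited 1 table of raw read counts per gene and library, per the file headers and values. FastQC, HISAT2, HTSeq, DESeq2 and GRCh38 are named in the submitters' processing notes, without versions or settings. Of 58302 gene identifiers, 58039 matched GENCODE 29, whose types, exons and coordinates (GRCh38) were used; the annotation release of the counting is not given in the sources used here. Libraries held 3747090 to 4865161 counts, and 3 counts correspond to 0.617 to 0.801 CPM, a limit that covers counting error only. No entry without a gene name was present.

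CPM was the count over the library total per 1e6. All genes were tested with edgeR 4.0.16 (R 4.3.3; TMM factors, filterByExpr, quasi-likelihood F test) and Benjamini-Hochberg adjustment at 0.05 over the 12392 genes kept; errors of log2 changes are the absolute log2 change over the square root of F, and errors of CPM are SD. P-values measure the spread between these 8 libraries. In each of the 12 replicate pairs the counts spread beyond counting error. Chi-square per degree of freedom was 2.39 to 6.34 between control libraries and 1.19 to 2.16 between shPROX1 libraries, so the controls spread more widely. The fit did not give the groups separate spreads. On simulated data with 12272 genes the test recovered 60%, 92% and 100% of genes changed by 0.5, 1 and 2 on the log2 scale. Of the simulated lncRNAs among them it recovered 31.8%, 95.5% and 100%. In that simulation 12015 genes were unchanged, while 35.2% of tested genes were called in the data. The adjusted threshold is stricter where few genes change, so these rates are not the power of the real test. DESeq2 1.42.0 and limma 3.58.1 (voom), other scaling and filters, a replicate block and leaving out each library were tried as alternatives.

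Genes named were PROX1 and PROX1-AS1, the 12 largest rises and 12 largest falls past the test without overlap between groups, the 8 highest per kb, lists of lncRNAs with known roles, miRNA hosts, nearest protein-coding neighbours and the 3 genes on either side of the level limit. A few others, such as KDM6A, GASAL1 and members of neighbour pairs, were named after their values were seen. The members and lists were chosen with earlier results of these data known. Exon overlap and neighbours (nearest tested protein-coding gene within 50 kb) come from GENCODE 29. Overlap percentages count exon bases shared with all other annotated genes, so each is an upper limit for the gene named beside it. The miRNA and promoter sequences come from RefSeq (GRCh38.p14), and transcript sites from GENCODE 29 transcripts.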

Additional observations from a re-analysis of the deposited data

Results flagged for a closer look

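In each case the highest or lowest of the 4 libraries of a group lay apart from the other 3, by a gap, relative to the group's range, above Dixon's critical value. This was found in 12 of 128 groups of 4 values, and chance alone gives about 1 in 20. AD000090.1 was at 229 CPM in shPROX1 replicate 4, against 36.5 to 42.2 CPM in the other shPROX1 libraries, and at 187 CPM in control replicate 4, against 36.5 to 54.9 CPM in the other controls. In shPROX1 libraries, NEAT1 was at 87 CPM in replicate 3 (others 67.6 to 70.8), MIR663AHG at 104 CPM in replicate 3 (59.1 to 60.4), MIR100HG at 65.4 CPM in replicate 1 (58.1 to 59.2), TTN-AS1 at 22.8 CPM in replicate 2 (31.9 to 33.4) and EPB41L4A-AS1 at 31.3 CPM in replicate 2 (24.3 to 25.4). In control libraries, replicate 3 stood apart for SBF2-AS1 at 13.8 CPM (others 9.87 to 10.1), AC245297.3 at 3.39 CPM (4.19 to 4.32), HOTAIR at 13.8 CPM (10.6 to 11.1) and AL117190.1 at 7.01 CPM (5.67 to 5.89), and replicate 4 for MUC20-OT1 at 29.8 CPM (23.4 to 24.2). Of these genes SBF2-AS1, AC245297.3 and MIR100HG passed the test, and their groups did not overlap with these libraries included.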

How the results depend on the processing

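Of the 75 calls, 53 (24 higher, 29 lower) held in the same direction in all 13 alternative fits. DESeq2 called 54 lncRNAs (24 higher, 30 lower). Leaving out 1 library gave 67 to 73 calls in all, of which 63 to 69 were among the 75 and the rest were new. No fit called any of the 75 in the opposite direction. The same replicate numbers did not pair the samples (correlations of deviations -0.025, -0.0512, 0.0605 and -0.0723), and with the replicate block 73 lncRNAs were called. The median log2 change ranged from -0.0669 to -0.0148 (without control replicate 4) when 1 library was left out. With a limit of 2 CPM, 112 of 559 tested lncRNAs were called (20.04%), 50 higher and 62 lower, and the median was -0.0156. At 10 CPM, 47 of 123 were called (38.2%), 19 higher and 28 lower. Without lncRNAs of 10% exon overlap, 54 of 188 were called (28.7%), 27 higher and 27 lower, and the median was -0.0186. Over all tested genes 35.2% were called, so whether the lncRNA share lay below or above it depended on the level limit. Pairs changed in the same direction numbered 17 within 200 kb and 6 without shared exon bases. The summed CPM difference was -175.1 without the 2 most abundant members and -220.1 without 2 members whose newer symbol starts with SNHG, an alternative chosen after seeing the data. The cause of these shifts was not tested beyond the smaller or larger sets themselves.

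Several changes near 0 altered sign when 1 library was left out, none past the test in the full fit. The lowest and highest log2 changes were -1.08 and 0.974 for AD000090.1 (-0.0924 with limma voom), -0.0752 and 0.17 for KCNQ1OT1, -0.0191 and 0.0601 for MEG8, -0.061 and 0.0938 for TTN-AS1, -0.0128 and 0.0505 for CRNDE, -0.0954 and 0.11 for MIRLET7BHG, -0.202 and 0.0454 for HOXD-AS2, -0.111 and 0.0336 for MUC20-OT1, and -0.0515 and 0.0975 for ENTPD1-AS1. For neighbours they were -0.202 and 0.0237 for SLC39A11, -0.104 and 0.0319 for HOXD3, -0.284 and 0.113 for DNM3, and -0.171 and 0.202 for LRRC75A. NEAT1 passed the test as a fall without control replicate 1, EPB41L4A-AS1 without shPROX1 replicate 2, DANCR without shPROX1 replicate 1 or control replicate 2, and AD000090.1 without shPROX1 replicate 4. LINC-PINT (ENSG00000231721) passed as a rise without shPROX1 replicate 3, and MIR663AHG without control replicate 4 or a filter on low counts. At 5 to 10 CPM a library holds few counts of a gene, and the median standard error of lncRNAs there was 0.20 on the log2 scale. Of the 28 lncRNAs called at that level, 7 changed by 2-fold or more. Smaller differences could be missed at this depth, and how often was not tested.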
